A study of Homo sapiens with 11 samples.

Results

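SH-SY5Y cells that had been exposed to hydrogen peroxide before neuronal differentiation were compared with cells that were only differentiated, across all mature miRNAs counted. The libraries were chosen by the labels alone. They were 5 of the 11 small RNA libraries of the study, 3 from H2O2-treated cells and 2 from controls. The remaining 6 libraries come from the co-treatment experiment, in which H2O2 was present during differentiation, and were used for the test of a difference between the experiments, for a comparison of the controls and in 1 alternative fit. SH-SY5Y is a human neuroblastoma line, a single line derived from SK-N-SH, that takes on a neuron-like form under all-trans retinoic acid (ATRA). Pre-treated cells received 10 µM H2O2 for 72 h, the peroxide was removed, and ATRA was then given for 7 days. Controls (replicates 1 and 2, called control 1 and control 2) had ATRA for 7 days and no H2O2, and the RNA of both groups was taken after differentiation. The submitters describe the cultures as biological triplicates from which 1 outlying sample was left out, and the control group has 2 libraries. The question was which miRNAs differ when differentiation follows a period of oxidative stress, and whether each difference is seen against each of the 2 controls.

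A miRNA is cut from a hairpin in a longer transcript, first by DROSHA in the nucleus and then by DICER1 in the cytoplasm, and one or both arms of the hairpin (5p and 3p) are loaded into Argonaute proteins. The loaded strand pairs with messenger RNAs mainly through its seed, bases 2 to 8, so miRNAs that share a seed form a family with overlapping targets. Many hairpins lie in clusters that are copied from DNA as 1 transcript, and others sit in introns of protein-coding genes. Some hairpins bypass DROSHA, such as mirtrons, which are released by splicing, and miR-320a, whose hairpin is made directly by transcription. Hydrogen peroxide activates the NRF2 and p53 pathways, both of which are linked to several miRNAs, and retinoic acid drives HOX genes whose clusters hold the miR-10 genes.

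The 5 libraries held from 6935876 to 8396746 counts, and 3 counts correspond to 0.357 to 0.433 CPM, the count scaled for the total of its library. The table listed 2576 miRNAs, of which 1057 had no count in any of the 5 libraries and 651 were above 0 but under the filter. For testing, a miRNA had to exceed 0.721 CPM, which is 5 counts of the library with the lowest total, in 2 or more libraries, and 868 did. The 3 H2O2 libraries were close to each other, with a median absolute log2 difference of 0.111 to 0.208 over the 395 miRNAs with a mean of at least 10 CPM, whereas the 2 controls differed from each other by a median of 0.760. Control 1 lay 0.857 to 0.930 from the H2O2 libraries and control 2 lay 0.606 to 0.676 from them. The distance between the controls was therefore about as large as their distance from treated cells, so the levels of both controls or the ratio to each are given with the main changes below. In bulk RNA, fewer cells of a type and less of a miRNA per cell cannot be told apart. Of the neuronal miRNAs, hsa-miR-137 had 10379 and 21067 CPM in the controls and 27771, 26402 and 32895 CPM in the H2O2 libraries. The brain miRNA hsa-miR-124-3p had at most 7 counts in any library and was not tested. Among 11 tested neuronal and neuroendocrine miRNAs, the mean of the H2O2 libraries was above control 1 for 8 and above control 2 for 5. Their median log2 ratio of H2O2 to control was 0.62 against control 1 and −0.05 against control 2.

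The mature sequences below are those of the miRNAs that the results turn on, written 5′ to 3′ with the seed in capitals (RefSeq annotation of GRCh38.p14). The first set holds those called by both tests described further on for which the table had an entry. Those that rose came first, and those that fell followed.
hsa-miR-335-5p: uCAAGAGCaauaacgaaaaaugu
hsa-miR-335-3p: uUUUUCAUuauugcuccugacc
hsa-miR-21-5p: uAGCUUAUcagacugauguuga
hsa-miR-3917: gCUCGGACugagcagguggg
hsa-miR-1224-5p: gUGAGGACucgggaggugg
hsa-miR-760: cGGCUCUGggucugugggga
hsa-miR-18a-3p: aCUGCCCUaagugcuccuucugg
hsa-miR-18b-3p: uGCCCUAAaugccccuucuggc
hsa-miR-675-3p: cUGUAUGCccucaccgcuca
hsa-miR-629-3p: gUUCUCCCaacguaagcccagc
hsa-miR-323b-3p: cCCAAUACacggucgaccucuu
hsa-miR-342-5p: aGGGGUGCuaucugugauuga
hsa-miR-3127-5p: aUCAGGGCuuguggaaugggaag
hsa-miR-877-5p: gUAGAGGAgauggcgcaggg

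None of these 14 shares a seed with another. The second set shows the families described below, to let the shared seeds be compared. hsa-miR-16-5p, hsa-miR-195-5p and hsa-miR-15b-5p carry the same seed, as do hsa-miR-301a-3p and hsa-miR-454-3p. The miR-320 members share a seed apart from hsa-miR-320e, whose listed sequence starts 1 base later, so that its bases 2 to 8 are shifted.
hsa-miR-16-5p: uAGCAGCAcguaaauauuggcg
hsa-miR-195-5p: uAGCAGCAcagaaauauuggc
hsa-miR-15b-5p: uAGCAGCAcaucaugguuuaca
hsa-miR-301a-3p: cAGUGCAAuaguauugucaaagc
hsa-miR-454-3p: uAGUGCAAuauugcuuauagggu
hsa-miR-320b: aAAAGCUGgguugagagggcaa
hsa-miR-320c: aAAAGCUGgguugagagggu
hsa-miR-320d: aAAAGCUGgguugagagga
hsa-miR-320e: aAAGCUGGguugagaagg

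The last set holds near-identical copies, between which reads with an error can be exchanged. hsa-miR-129-1-3p and hsa-miR-129-2-3p differ by U20C, and hsa-miR-99a-5p and hsa-miR-100-5p by U16A, with positions counted from 1 at the 5′ end and the first-named miRNA given first.
hsa-miR-129-1-3p: aAGCCCUUaccccaaaaaguau
hsa-miR-129-2-3p: aAGCCCUUaccccaaaaagcau
hsa-miR-99a-5p: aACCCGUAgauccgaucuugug
hsa-miR-100-5p: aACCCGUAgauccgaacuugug

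edgeR's exact test called 47 miRNAs raised and 86 lowered (5.41% and 9.91% of the 868 tested) at a Benjamini-Hochberg false discovery rate (FDR) under 0.05 with a log2 fold change (log2FC) of more than 0.6 in size. edgeR's quasi-likelihood test, which allows for the uncertainty of each miRNA's own spread, called 17 (1.96%), 4 of them raised and 13 lowered, and all 17 were among the 133. The number of exact-test calls dropped to 13, 9 or 16 on removal of H2O2 replicate 1, 2 or 3. With control 2 as the lone control it called 285, and with control 1 as the lone control 449, where the spread comes from the 3 H2O2 libraries only and the lone control is assumed to vary like them. FDR values below are from the exact test unless stated otherwise, and standard errors (SE) are from the quasi-likelihood fit.

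Measured against each control by itself, as the log2 ratio of the mean of the 3 H2O2 libraries to that control with 0.5 CPM added to both, 110 miRNAs (12.7%) lay more than 0.6 above both controls and 127 (14.6%) more than 0.6 below both. Another 81 passed 0.6 in opposite directions, above one control and below the other. The 3 H2O2 libraries lay above both controls for 202 miRNAs (23.3%) and below both for 197 (22.7%). Of the 133 called miRNAs, all 47 raised ones and 78 of the 86 lowered ones passed 0.6 against each control. A call needs some agreement between the controls, so these shares describe the calls and are no further evidence for them.

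**Figure D1:**
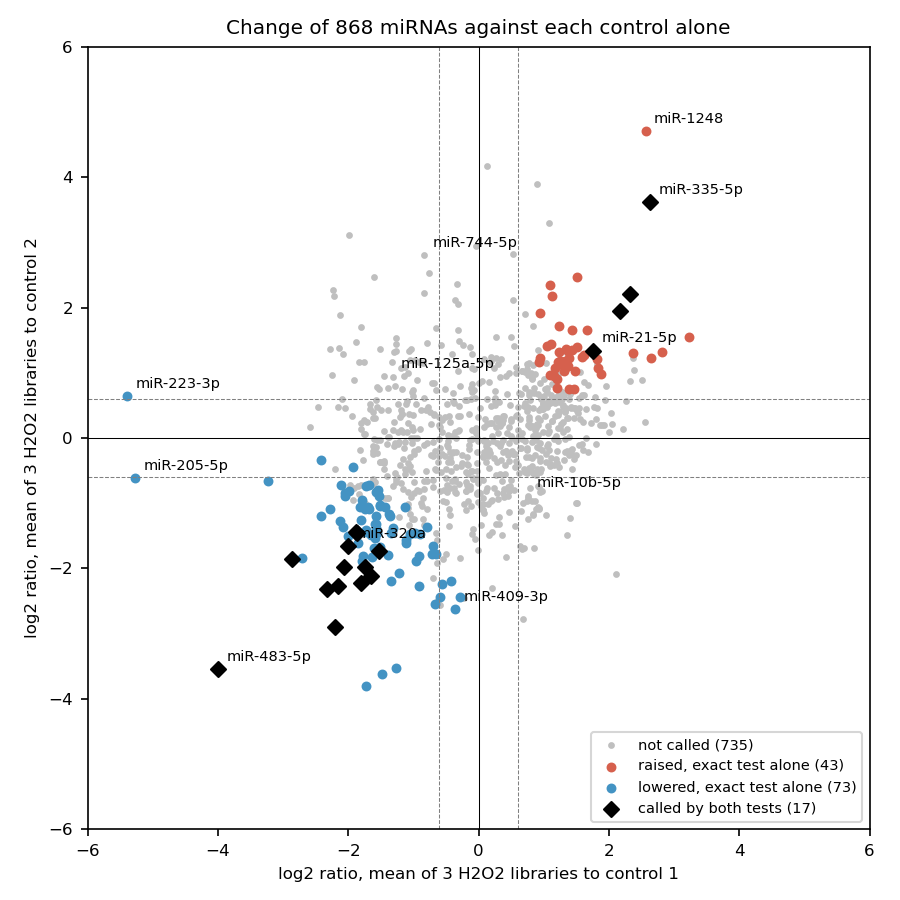
Each point is 1 of the 868 tested miRNAs, with its log2 ratio of the mean of 3 H2O2 libraries to control 1 on the x axis and to control 2 on the y axis, and dashed lines at 0.6 and −0.6. Called miRNAs lie in the upper right and lower left, apart from hsa-miR-223-3p, while hsa-miR-10b-5p and hsa-miR-125a-5p lie in the corners where the controls disagree.

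The 17 miRNAs called by both tests were past 0.6 in the same direction against each control, and none of their ratios to a control was smaller than 1.34 in size. Their largest difference between the controls was 1.01, for hsa-miR-760. The quasi-likelihood test weighs the change against that spread, so these values describe the 17 and are no further evidence for them. Whichever H2O2 library was removed, 8 of the 17 kept their call in the exact test, namely hsa-miR-335-5p, hsa-miR-451a, hsa-miR-483-5p, hsa-miR-675-3p, hsa-miR-320a, hsa-miR-760, hsa-miR-1224-5p and hsa-miR-3917.

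hsa-miR-335-5p comes from an intron of MEST, an imprinted gene expressed from the paternal allele (hairpin on chr7:130135952-130136045, plus strand, GRCh37). Its level was 32.2 and 16 CPM in controls 1 and 2 and 196, 233 and 177 CPM in H2O2 libraries 1 to 3, a log2FC of 3.06 (SE 0.42, FDR = 9.58e-07 in the exact and 0.0287 in the quasi-likelihood test), with 2.63 against control 1 and 3.62 against control 2. The other arm, hsa-miR-335-3p, rose with it, from 2.28 and 2.74 CPM to 12.3, 14.9 and 9.02 CPM, by a log2FC of 2.26 (SE 0.41, FDR = 9.38e-04 in the exact and 0.0445 in the quasi-likelihood test). Treated cells were above both controls for each arm, with no overlap.

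hsa-miR-21-5p, a miRNA induced by many stresses that restrains PDCD4, was the most abundant of the 4 raised by both tests (hairpin on chr17:57918627-57918698, plus strand, in an exon of VMP1 transcripts). It had 5303 and 7079 CPM in the controls and 18094, 17780.3 and 17926 CPM in the H2O2 libraries, a log2FC of 1.53 (SE 0.26, FDR = 8.86e-04 in the exact and 0.0373 in the quasi-likelihood test). The ratio was 1.76 against control 1 and 1.34 against control 2. Its passenger arm hsa-miR-21-3p had 28.2 and 29.1 CPM in the controls and 76.5, 62.5 and 83.4 CPM after H2O2, a log2FC of 1.37 (SE 0.31, FDR = 0.0168), so both arms rose. hsa-miR-451a, which is matured by Argonaute 2 without DICER1 and is abundant in red blood cells, was low throughout. It had 0.805 and 0.915 CPM in the controls and 5.03, 6.64 and 6.50 CPM in treated cells (log2FC 2.79, SE 0.44, FDR = 1.54e-04 in the exact and 0.0317 in the quasi-likelihood test).

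Of the 13 lowered by both tests, hsa-miR-320a had the highest level. It had 14647 and 11557 CPM in the controls and 3973, 3808 and 3177 CPM in the H2O2 libraries (log2FC −1.84, SE 0.25, FDR = 9.92e-06 in the exact and 0.0287 in the quasi-likelihood test), and its ratio was −2.0 against control 1 and −1.66 against control 2. The next most abundant was hsa-miR-760, with 779 and 385 CPM against 126, 111 and 81.8 CPM (log2FC −2.45, SE 0.38, FDR = 9.92e-06 in the exact and 0.0317 in the quasi-likelihood test), and treated cells were below both controls although control 1 was the higher of them.

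Among the lowered miRNAs from introns, hsa-miR-877-5p is a mirtron of ABCF1 (hairpin on chr6:30552109-30552194, plus strand). It fell from 460.5 and 529 CPM to 159.7, 179 and 137 CPM, a log2FC of −1.64 (SE 0.26, FDR = 3.69e-04 in the exact and 0.0317 in the quasi-likelihood test). hsa-miR-1224-5p, a mirtron in VWA5B2 (hairpin on chr3:183959193-183959277, plus strand), fell from 298 and 484 CPM to 62.1, 65.5 and 66.2 CPM, a log2FC of −2.60 (SE 0.31, FDR = 4.16e-08 in the exact and 0.0226 in the quasi-likelihood test). Both had a similar ratio to either control, −1.54 against control 1 and −1.73 against control 2 for the first and −2.20 against control 1 and −2.90 against control 2 for the second. hsa-miR-342-5p from EVL, a regulator of actin filaments, had 207 and 246 CPM in the controls and 56.7, 66 and 63 CPM in treated cells (log2FC −1.87, SE 0.27, FDR = 5.94e-05 in the exact and 0.0310 in the quasi-likelihood test).

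The remaining members of this group had no more than 249 CPM in any library. hsa-miR-629-3p, from an intron of TLE3, fell from 30.7 and 41.2 CPM to 9.71, 8.54 and 7.03 CPM (log2FC −2.09, SE 0.33, FDR = 1.63e-04), with −1.81 against control 1 and −2.22 against control 2. hsa-miR-3127-5p, from an intron of CNNM4, fell from 30.1 and 22.1 CPM to 8.07, 6.91 and 8.36 CPM (log2FC −1.74, SE 0.32, FDR = 0.00207), with −1.88 against control 1 and −1.45 against control 2. hsa-miR-3917, whose hairpin lies in an exon of STMN1, fell from 5.24 and 5.18 CPM to 0.468, 0.542 and 0.929 CPM (log2FC −2.99, SE 0.49, FDR = 3.92e-05), with −2.32 against control 1 and −2.31 against control 2. All 3 were below both controls in every treated library. hsa-miR-18a-3p and hsa-miR-18b-3p, from paralogous clusters, fell from 249 and 187 CPM to 66.9, 67.8 and 69 CPM and from 16.2 and 15.2 CPM to 3.39, 3.12 and 3.98 CPM. In both, the 3 treated libraries lay below the lower control. hsa-miR-323b-3p, of the imprinted 14q32 region, fell from 21.1 and 29.3 CPM to 5.85, 5.83 and 7.43 CPM (log2FC −1.98, SE 0.33, FDR = 4.59e-04).

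**Figure D2:**
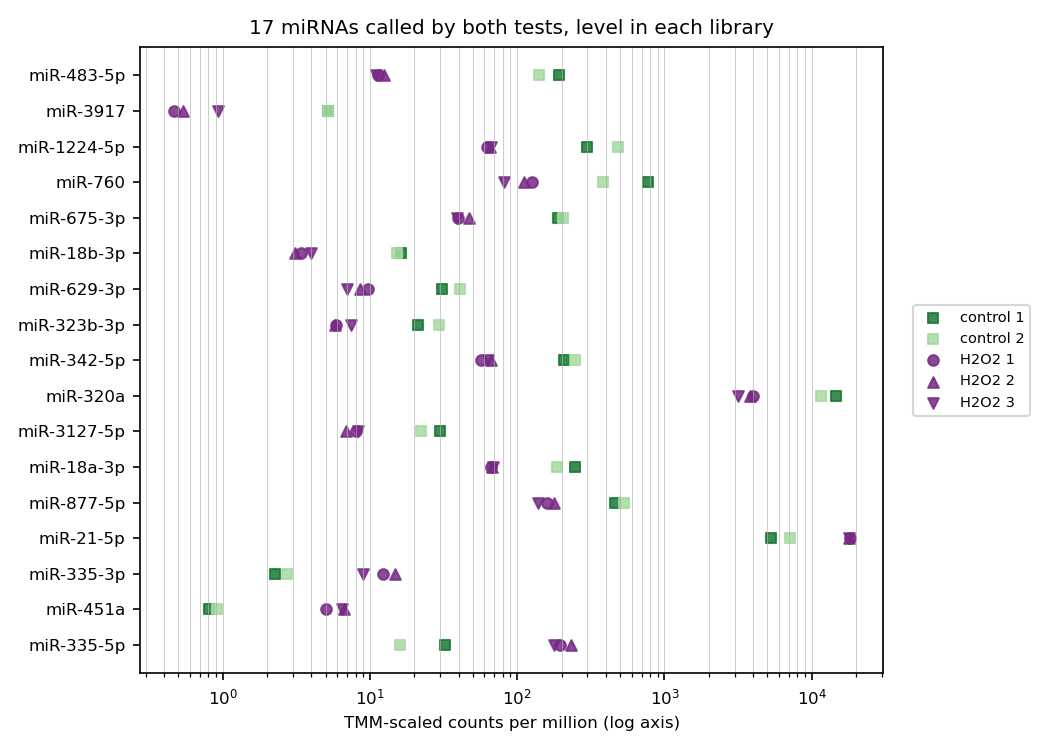
TMM-scaled CPM on a log axis for the 17 miRNAs called by both tests, with 1 symbol for each of the 2 controls (squares) and 3 H2O2 libraries (circle and triangles). In every row the treated libraries lie to one side of both controls, to the right for hsa-miR-335-5p, hsa-miR-335-3p, hsa-miR-21-5p and hsa-miR-451a and to the left for the other 13.

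The miRNAs of the imprinted genes IGF2, H19 and MEST held 4 of these 17. IGF2 is a fetal growth factor, and H19 is the non-coding RNA next to it that is expressed from the maternal allele and is the precursor of miR-675. All 6 tested members were called, the 2 arms of miR-335 raised and the 4 arms of miR-483 and miR-675 lowered. Over all tested miRNAs 5.41% rose and 9.91% fell. The list joins hairpins of separate chromosomes and was chosen with earlier results of these data known, so its count is no independent evidence. hsa-miR-483-5p from an intron of IGF2 had 193 and 141 CPM in the controls and 11.3, 12.5 and 11 CPM in treated cells, with −4.0 against control 1 and −3.55 against control 2. hsa-miR-675-3p had 189 and 205 CPM and 39.9, 47 and 39 CPM (log2FC −2.23, SE 0.27, FDR = 1.08e-06 in the exact and 0.0226 in the quasi-likelihood test), with −2.16 against control 1 and −2.28 against control 2. Their other arms depended on 1 control: hsa-miR-483-3p had 163 and 27 CPM in the controls against 17.9, 16.7 and 15.9 CPM, so that the ratio was −3.24 against control 1 and −0.67 against control 2. hsa-miR-675-5p went the other way, with 6.44 and 24.6 CPM against 4.09, 4.88 and 3.32 CPM and a ratio of −0.60 against control 1 and −2.45 against control 2. For both hairpins, the arm with the larger difference between controls was not the one that passed both tests. That difference is part of the spread that the quasi-likelihood test weighs, so this outcome follows in large part from the test.

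Turning to the families, each is described by its counts and its median log2 ratio, beside a median over all 868 miRNAs of −0.19 with both controls, 0.07 against control 1 and −0.03 against control 2. Over all 868, 5.41% were called raised and 9.91% lowered. The miR-15 and miR-16 family, which also holds hsa-miR-195-5p, hsa-miR-497-5p and hsa-miR-424-5p and which targets cyclins and BCL2, was the family with the most raised members: 4 of 6 rose and none fell, and the median was 1.05 with both controls, 1.14 against control 1 and 0.93 against control 2. hsa-miR-195-5p rose from 833 and 662 CPM to 1828, 1895 and 1698 CPM (log2FC 1.27, SE 0.26, FDR = 0.00825), and hsa-miR-497-5p, from the same cluster, from 688 and 733 CPM to 1452, 1513 and 1671 CPM (log2FC 1.12, SE 0.25, FDR = 0.0168). hsa-miR-15a-5p went from 1019.6 and 1247 CPM to 2189, 2321 and 2521 CPM (log2FC 1.05, SE 0.25, FDR = 0.0261) and hsa-miR-16-5p from 304 and 352 CPM to 644, 694 and 705 CPM (log2FC 1.06, SE 0.26, FDR = 0.0291). None of the 4 passed the quasi-likelihood test, in which their FDR was 0.0520 to 0.0590. The most abundant member differed in direction. hsa-miR-15b-5p had 8144 and 6065 CPM in the controls and 5126, 5722 and 5444 CPM after H2O2 (log2FC −0.39, SE 0.25, FDR = 0.468), so that the summed level of the family was 11018 and 9094 CPM in the controls and 11297, 12187 and 12087 CPM in the H2O2 libraries. The rise of 4 members thus left treated cells above control 1 by little in the sum. hsa-miR-424-5p had a log2FC of 0.60 (SE 0.31, FDR = 0.359). hsa-miR-16-5p has 2 hairpins (chr13:50623109-50623197, minus strand and chr3:160122533-160122613, plus strand), between which the counts cannot be divided.

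The miR-130 and miR-301 family, with hsa-miR-454-3p, targets messages of the TGF-beta pathway. Each of its 5 members lay above both controls in every H2O2 library, beside 23.3% of all tested miRNAs, and 3 of the 5 were called. hsa-miR-301a-3p, from an intron of SKA2, rose from 1244 and 976 CPM to 2815, 2216 and 2734 CPM (log2FC 1.22, SE 0.27, FDR = 0.0135). hsa-miR-301b rose from 176 and 167 CPM to 436, 369.5 and 442 CPM (log2FC 1.28, SE 0.27, FDR = 0.0116), and hsa-miR-130a-3p from 982 and 1328 CPM to 2313, 2076 and 2395 CPM (log2FC 0.97, SE 0.27, FDR = 0.0492). The family median was 0.97 with both controls, 1.06 against control 1 and 0.77 against control 2. hsa-miR-454-3p, which shares a transcript with hsa-miR-301a-3p, had a log2FC of 0.64 (SE 0.25, FDR = 0.212) and hsa-miR-130b-3p one of 0.69 (SE 0.27, FDR = 0.197). Neither was called, and both were nearer to control 2 (0.46 and 0.46) than to control 1 (0.83 and 0.96). Of the miR-26 family, hsa-miR-26b-5p, from an intron of CTDSP1, was called. It rose from 17527 and 14394 CPM to 33519, 36492 and 31359.8 CPM (log2FC 1.08, SE 0.25, FDR = 0.0188), one of the 10 most abundant miRNAs, and was above either control by a similar ratio (0.95 against control 1 and 1.23 against control 2).

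In the opposite direction, 4 of the 5 tested miR-320 miRNAs fell, with a median of −1.99 with both controls, −2.0 against control 1 and −1.66 against control 2. Beside hsa-miR-320a these were hsa-miR-320b, hsa-miR-320c and hsa-miR-320d, all of which have 2 hairpins and far lower levels. hsa-miR-320c went from 25.1 and 10.5 CPM to 4.33, 5.69 and 2.92 CPM (log2FC −2.04, SE 0.48, FDR = 0.00717) and hsa-miR-320d from 4.56 and 4.88 CPM to 1.75, 0.813 and 0.929 CPM (log2FC −1.99, SE 0.49, FDR = 0.00881). hsa-miR-320b was at 6.31 and 3.20 CPM in the controls and at most 0.819 CPM in treated cells. hsa-miR-320e had 0.805 and 1.22 CPM and 0.117, 0.949 and 1.06 CPM and was not called. The short members differ from each other mainly at the 3′ end, as the sequences above show, so reads of 1 member could be counted for another.

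**Figure D3:**
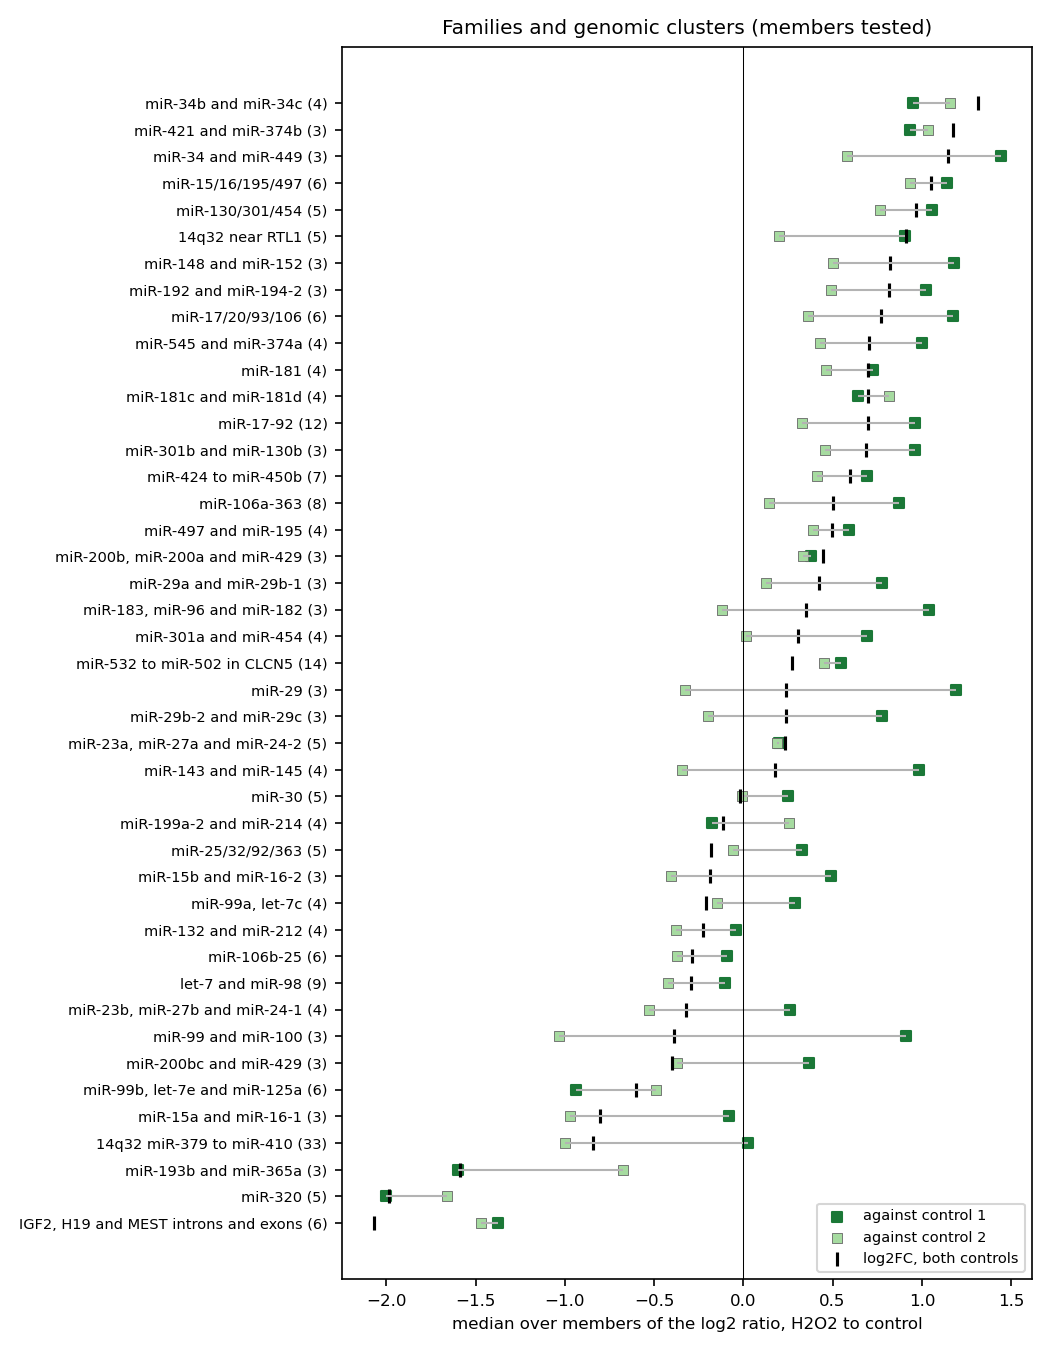
Median over the tested members of the log2 ratio of H2O2 to control, for families and genomic clusters with at least 3 tested members (their number in parentheses). Dark squares are medians against control 1, light squares against control 2 and bars the log2FC with both controls. The miR-15/16, miR-130 and miR-320 families have both squares on one side of 0 and close together, while the squares of miR-99/100, miR-29 and the 14q32 cluster lie far apart.

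Some clusters and families had opposite or unequal values against the 2 controls. The 14q32 cluster from miR-379 to miR-410 is an imprinted array of brain-expressed miRNAs. Of its 69 miRNAs, 15 had no count and 33 were tested. Where 9.91% of all tested miRNAs fell, 8 of these 33 were called lowered and none raised. Of the 33, 1 passed the quasi-likelihood test, hsa-miR-323b-3p. The median was −0.85 with both controls, 0.03 against control 1 and −1.0 against control 2, and control 2 was above control 1 by a median of 1.16. 3 members were above control 2 and 17 above control 1. hsa-miR-409-3p had 32.2 and 157 CPM in the controls and 19.3, 29.1 and 26.7 CPM in treated cells, a ratio of −0.36 against control 1 and −2.62 against control 2. hsa-miR-382-5p had 43.6 and 195.3 CPM against 30.6, 41.8 and 34.8 CPM, and hsa-miR-369-5p 13.7 and 48 CPM against 10.4, 9.76 and 10.1 CPM. For these 3 the treated cells resembled control 1. The called members that fell against each control beyond 0.6 were 5 in number: hsa-miR-323a-3p (−1.73 against control 1 and −1.44 against control 2), hsa-miR-485-5p (−1.85 against control 1 and −1.61 against control 2), hsa-miR-323b-3p (−1.65 against control 1 and −2.12 against control 2), hsa-miR-134-5p (−0.68 against control 1 and −2.55 against control 2) and hsa-miR-543, which had at most 1.53 CPM in any library. The cluster as a whole was therefore lower than control 2 and not lower than control 1 in its median.

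The miRNAs linked to retinoic acid and the HOX clusters were not called in any of 7 tested members. Groups overlapped for 469 of all 868 tested miRNAs and for all 7 of these members. The median was −0.18 with both controls, 0.77 against control 1 and −0.15 against control 2, while control 2 was above control 1 by 1.65. hsa-miR-10b-5p, the second most abundant miRNA, had 58909.8 and 184595 CPM in the controls and 100087, 106706 and 93629 CPM in the H2O2 libraries, between both controls. hsa-miR-10a-5p had 11.7 and 41.8 CPM and 23.9, 22.8 and 23.9 CPM, and hsa-miR-99a-5p 1627 and 6385 CPM and 2872, 3039 and 3283 CPM. The reverse order of the controls was seen for hsa-miR-615-3p, from the HOXC cluster, with 1869 and 523 CPM and 1140.5, 1032 and 728 CPM. In all of these the treated libraries lay between the controls, so a rise or a fall would be read from them according to the control used. hsa-miR-100-5p, a near copy of hsa-miR-99a-5p, had 19.3 and 83 CPM and 77.2, 77.4 and 119.8 CPM.

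The groups overlapped for 469 of all 868 tested miRNAs and for 6 of the 10 most abundant, among them hsa-miR-10b-5p. hsa-miR-125a-5p, which promotes neural differentiation by lowering LIN28, had 138757 and 28951 CPM in the controls and 60354, 57926 and 48810.4 CPM after H2O2, a ratio of −1.32 against control 1 and 0.94 against control 2. hsa-let-7i-5p had 18617 and 61141 CPM against 31209, 29519 and 33247 CPM, with 0.75 against control 1 and −0.96 against control 2. hsa-miR-27b-3p (0.81 against control 1 and −0.31 against control 2), hsa-miR-25-3p (0.33 against control 1 and −0.56 against control 2) and hsa-miR-93-5p (0.82 against control 1 and −0.05 against control 2) also changed sign with the control. Of the other 4, hsa-miR-26b-5p rose, and hsa-miR-99b-5p fell from 52654 and 37498 CPM to 19966, 18990.0 and 16130.0 CPM (log2FC −1.30, SE 0.27, FDR = 0.00491). hsa-let-7b-5p had 101467 and 66451 CPM against 48736, 47337 and 46903 CPM (FDR = 0.0874), below both controls, and hsa-miR-191-5p 42188 and 33062 CPM against 53816, 53071 and 44487 CPM (FDR = 0.441), above both. Neither was called. None of the 9 let-7 and miR-98 members was called, and their median was −0.29 with both controls, −0.10 against control 1 and −0.42 against control 2.

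Most other families and lists had few calls, where 5.41% of all tested miRNAs rose and 9.91% fell. Of the 6 members of the miR-17 family none was called, with a median of 0.77 with both controls, 1.17 against control 1 and 0.36 against control 2, and of the 4 miR-181 members none, with 0.70 with both controls, 0.73 against control 1 and 0.46 against control 2. The miR-29 family had no call of 3, and its median was 0.24 with both controls, 1.19 against control 1 and −0.33 against control 2. The miR-30 family had 1 of 5, the fall of hsa-miR-30c-5p from 2.55 and 9.30 CPM to 1.75, 1.22 and 1.72 CPM, with −0.56 against control 1 and −2.25 against control 2. hsa-miR-221-3p and hsa-miR-222-3p overlapped the controls and were not called. The cluster of miR-193b and miR-365a had 1 of 3 called, hsa-miR-193b-3p, which fell from 10.1 and 5.34 CPM to 1.87, 2.30 and 1.59 CPM (log2FC −2.0, SE 0.43, FDR = 0.00504). In the cluster of miR-183, miR-96 and miR-182, hsa-miR-96-5p was called of 3, with 3.22 and 3.35 CPM in the controls and 8.66, 8.54 and 7.30 CPM after H2O2 (log2FC 1.31, SE 0.35, FDR = 0.0347). The 5 tested miRNAs of 14q32 near RTL1 had no call and a median of 0.91 with both controls, 0.91 against control 1 and 0.20 against control 2. A list of 7 miRNAs that the study singled out as the most connected of its interaction network, chosen on these samples, had all 7 raised, with a median of 1.23 with both controls, 1.17 against control 1 and 1.17 against control 2. They include hsa-miR-16-5p, hsa-miR-195-5p, hsa-miR-497-5p and hsa-miR-96-5p, and their choice makes that count no independent evidence.

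**Figure D4:**
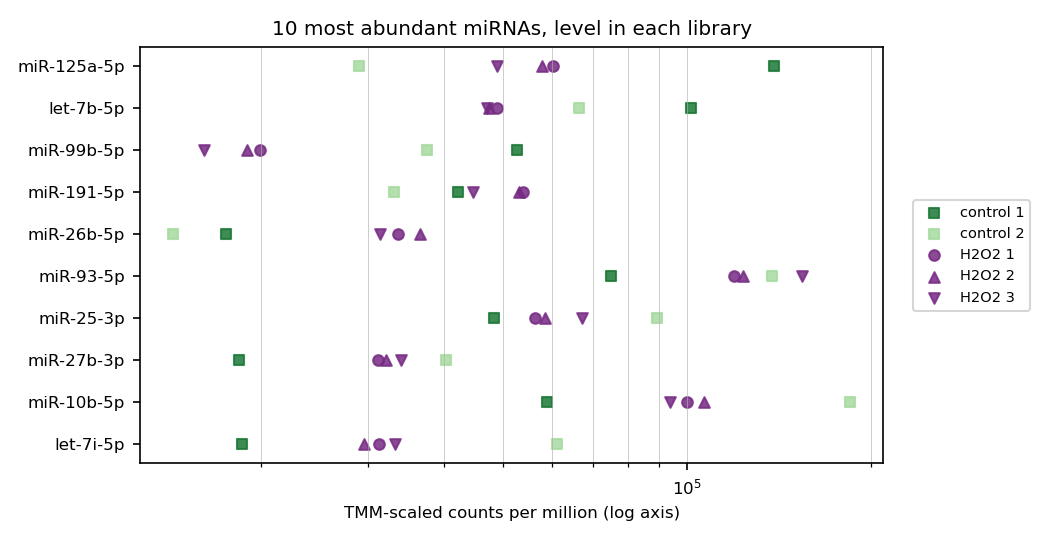
TMM-scaled CPM on a log axis of the 10 most abundant miRNAs in each library, ordered by the difference between the controls, with squares for controls and circle and triangles for H2O2 libraries. The treated libraries lie close together, and for hsa-miR-125a-5p, hsa-miR-10b-5p and hsa-let-7i-5p they lie between the controls.

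Clusters that are copied as 1 transcript varied in how many members were called, where 5.41% of all tested miRNAs rose and 9.91% fell. In the miR-17-92 cluster, an activator of cell division driven by MYC, 1 of 12 tested arms was called, the fall of hsa-miR-18a-3p. Above both controls in every H2O2 library were 23.3% of all tested miRNAs and 7 of these 12 arms. The 7 included hsa-miR-20a-5p, with 5583 and 8271 CPM and 11301, 11624 and 16034 CPM (FDR = 0.0926), and hsa-miR-19a-3p, with 1065 and 1901 CPM and 2146, 2263 and 3106 CPM (FDR = 0.221). hsa-miR-92a-3p had 1933 and 922 CPM and 825, 804 and 1027 CPM, with −1.13 against control 1 and −0.06 against control 2. The cluster median was 0.70 with both controls, 0.96 against control 1 and 0.33 against control 2. In the related miR-106b-25 cluster of MCM7, hsa-miR-106b-3p fell from 8289 and 4951 CPM to 2739, 2779 and 3055 CPM (log2FC −1.21, SE 0.29, FDR = 0.0136) and hsa-miR-25-5p from 1062 and 379 CPM to 270.3, 251 and 319 CPM, with only −0.44 against control 2. Their partner arms hsa-miR-106b-5p and hsa-miR-25-3p were not called.

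The cluster of miR-99b, let-7e and miR-125a on chromosome 19 had 2 called arms of 6, hsa-miR-99b-5p and hsa-miR-125a-3p, both lowered. Beside this and the next 2 clusters, 5.41% of all tested miRNAs rose and 9.91% fell. hsa-miR-125a-3p went from 304 and 196 CPM to 117, 118 and 80.8 CPM (log2FC −1.25, SE 0.33, FDR = 0.0241). The X-linked cluster in introns of CLCN5, from miR-532 to miR-502, had 1 call of 14. This was hsa-miR-660-5p, which rose from 468 and 713 CPM to 1651, 1514 and 1800.0 CPM (log2FC 1.49, SE 0.30, FDR = 0.00397), while hsa-miR-532-3p had 237 and 23.9 CPM in the controls and 157, 137 and 127 CPM in treated cells, below one control and above the other. In the cluster of miR-421 and miR-374b, 2 of 3 tested arms rose. hsa-miR-421 went from 623 and 316 CPM to 1266, 1189.8 and 1121 CPM (log2FC 1.34, SE 0.35, FDR = 0.0198) and hsa-miR-374b-3p from 53.6 and 65 CPM to 131, 121 and 149 CPM, whereas hsa-miR-374b-5p had 0.83 against control 1 and −0.53 against control 2.

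Both arms of a hairpin start from the same precursor. Arms were paired here by name, so for a miRNA with several hairpins, such as miR-181a, the ratio can draw on several precursors. Both arms were tested for 226 hairpins, and their log2FC had the same sign for 139. An arm was called for 63 hairpins, with the same sign in the other arm for 41. Both arms were called for 6 hairpins, and in each of the 6 they moved together. The share of the less abundant arm was lower in every H2O2 library than in both controls for 54 hairpins and higher for 38. For miR-18a the log2 ratio of the 3p to the 5p arm was −0.11 and −0.76 in the controls and −2.61, −2.44 and −2.65 after H2O2, where hsa-miR-18a-5p had a log2FC of 0.47 (FDR = 0.419). For miR-629 the ratio of the 3p to the 5p arm was −4.56 and −4.73 in the controls and −6.91, −7.03 and −7.05 in treated cells. That of miR-130b, of the 5p to the 3p arm, was −1.28 and −1.92 and −3.39, −3.34 and −3.13. In these 3 hairpins the treated libraries were below both controls by a wide margin. In miR-99b the minor arm gained instead, from −6.18 and −5.47 to −4.20, −4.24 and −4.06, since hsa-miR-99b-5p fell and hsa-miR-99b-3p had a log2FC of 0.38. Arm ratios were not tested.

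The mirtrons, a list formed after the values were seen, had 13 tested members. Where 9.91% of all tested miRNAs fell, 4 of the 13 did and none rose. Beside hsa-miR-877-5p and hsa-miR-1224-5p these were hsa-miR-1226-3p, from 626 and 321 CPM to 213, 198 and 175 CPM, and hsa-miR-1227-3p, from 11.5 and 50.3 CPM to 2.22, 3.12 and 4.11 CPM with −1.72 against control 1 and −3.80 against control 2. The median of the list was −1.23 with both controls, −1.62 against control 1 and −0.19 against control 2, so the list was lower mainly against control 1. The same was true of the 107 tested miRNAs with names from hsa-miR-6715 to hsa-miR-6895. Of these, 15 fell and none rose, where 9.91% of all tested miRNAs fell, with a median of −0.91 with both controls, −1.08 against control 1 and −0.08 against control 2. The miR-548 family arose from transposons in primates. Where 5.41% of all tested miRNAs rose, 3 of its 13 tested members did, hsa-miR-548aw, hsa-miR-548ba and hsa-miR-548e-5p. Its median was 0.92 with both controls, 1.22 against control 1 and 0.48 against control 2. These 2 lists were also formed after the values were seen.

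Among the lists named for pathways that peroxide engages, the first holds miRNAs that target NFE2L2 (NRF2) or its inhibitor KEAP1. Where 5.41% of all tested miRNAs rose, 1 of its 8 tested members did. This was hsa-miR-340-5p, from 1201 and 1980.2 CPM to 3101, 3182 and 3699 CPM (log2FC 1.06, SE 0.31, FDR = 0.0443). The list median was 0.65 with both controls, 1.14 against control 1 and 0.59 against control 2. hsa-miR-34a-5p, in the same list and induced by p53, had 5529 and 8901 CPM and 13347, 11898 and 14667 CPM, above both controls with FDR = 0.0965. The p53 list had 3 of 10 raised and 1 lowered, where 5.41% of all tested miRNAs rose and 9.91% fell. Its median was 0.81 with both controls, 1.14 against control 1 and 0.62 against control 2. The raised ones were hsa-miR-34c-5p, from 6.44 and 5.49 CPM to 17.5, 17.8 and 19.8 CPM (log2FC 1.62, SE 0.33, FDR = 0.00812), hsa-miR-192-5p, from 348 and 416 CPM to 908, 850.3 and 887 CPM (log2FC 1.21, SE 0.26, FDR = 0.0135), and hsa-miR-34b-3p, which had at most 4 counts in either control. hsa-miR-145-5p fell from 599 and 1167 CPM to 367, 414 and 323 CPM. hsa-miR-210-3p, the main target of the hypoxia factor HIF1A among miRNAs, fell from 711 and 1819 CPM to 421, 381 and 328 CPM (log2FC −1.75, SE 0.41, FDR = 0.00492), with −0.92 against control 1 and −2.27 against control 2. Of the 11 tested neuronal and neuroendocrine miRNAs, hsa-miR-138-5p rose (327 and 359 CPM to 786, 651 and 664 CPM) and hsa-miR-375 fell (2659 and 5763 CPM to 1662, 1739.9 and 1648 CPM), both beyond 0.6 against each control, and 9 were not called.

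Several of the largest changes rested on 1 control. hsa-miR-223-3p, a miRNA of myeloid cells, had 72.5 and 0.610 CPM in the controls and 1.17, 1.08 and 1.46 CPM in treated cells, a log2FC of −4.87 (SE 1.42, FDR = 0.0107), and was the only call whose groups overlapped. hsa-miR-205-5p, a miRNA of stratified epithelium, had 135 and 4.88 CPM and 2.69, 4.34 and 1.99 CPM, so that the ratio was −5.27 against control 1 and −0.62 against control 2. For both, the fall was against control 1, and its extent is set by that library. hsa-miR-423-5p had 3472 and 819.8 CPM and 778, 611 and 563 CPM, with −0.33 against control 2. In hsa-miR-129-1-3p control 2 was the high one (25 and 111 CPM against 8.31, 9.62 and 7.96 CPM). Its near copy hsa-miR-129-2-3p fell more evenly, from 41.2 and 36.9 CPM to 14.2, 14.4 and 9.82 CPM, with −1.65 against control 1 and −1.49 against control 2. The 8 calls that did not pass 0.6 in the same direction against each control were hsa-miR-223-3p, hsa-miR-25-5p, hsa-miR-423-5p, hsa-miR-30c-5p, hsa-miR-369-5p, hsa-miR-382-5p, hsa-miR-409-3p and hsa-miR-675-5p, all lowered.

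Lists for other cell types moved as follows, where 5.41% of all tested miRNAs rose and 9.91% fell. Of the white blood cell miRNAs, 1 of 5 tested was called (hsa-miR-223-3p), and their summed level was 119.9 and 33.4 CPM in the controls and 40.7, 38.2 and 36.3 CPM in the H2O2 libraries. hsa-miR-155-5p had at most 3 counts in any library. The epithelial list had 1 of 7 called (hsa-miR-205-5p), with 201 and 72.9 CPM in the controls and 92.1, 89.2 and 83.6 CPM in the H2O2 libraries. In both sums control 1 was the high library, to a large part through 1 miRNA each. hsa-miR-223-3p had 540 and 4 counts in controls 1 and 2, and hsa-miR-205-5p 1007 and 32. Of the 7 epithelial members, 4 lay above both controls in every H2O2 library and 2 below both. Over all tested miRNAs these shares were 23.3% and 22.7%. The red blood cell list, with 2 of 3 raised (hsa-miR-451a and hsa-miR-144-5p), summed to 2.01 and 3.66 CPM in the controls and 9.01, 13.7 and 14.2 CPM in the H2O2 libraries, and hsa-miR-486-5p had 1.07 and 1.22 CPM and 0.702, 1.36 and 0.398 CPM. Of the 3 tested liver miRNAs 2 were raised, hsa-miR-122-5p and hsa-miR-192-5p, the latter also in the p53 list. hsa-miR-885-5p, with 9 and 3 counts in the controls and 0 after H2O2, and hsa-miR-122-3p, with no counts, were not tested. hsa-miR-122-5p, the most abundant miRNA of hepatocytes, went from 92.5 and 261 CPM to 537, 632 and 788 CPM (log2FC 1.88, SE 0.48, FDR = 0.0116), and the list summed to 463 and 719 CPM in the controls and 1499, 1541 and 1721 CPM in the H2O2 libraries. The fibroblast and smooth muscle list had 1 of 5 called, the fall of hsa-miR-145-5p given above, and the endothelial list none of 2. The muscle list had 1 of 4 raised, hsa-miR-1, from 0.940 and 0.915 CPM to 3.39, 2.85 and 3.18 CPM, while hsa-miR-133a-3p, hsa-miR-133b and hsa-miR-208a-3p had no counts. The part of other cells in these values was not tested.

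Annotations that lie inside other small RNAs had 3 of 9 tested members raised and 1 lowered, where 5.41% of all tested miRNAs rose and 9.91% fell. hsa-miR-1248, within a small nucleolar RNA, had 93.7 and 20.7 CPM in the controls and 311, 632 and 727 CPM in treated cells, a log2FC of 3.28 (SE 0.73, FDR = 0.00128). hsa-miR-1291 rose from 84.2 and 43.3 CPM to 159, 227 and 338 CPM and hsa-miR-664b-5p from 56.8 and 23.6 CPM to 74.7, 122 and 171 CPM. In all 3, H2O2 library 1 was the lowest of the treated libraries and control 2 the lowest of all. hsa-miR-664a-3p fell, from 63 and 302 CPM to 24.9, 28.6 and 23.9 CPM, with −1.27 against control 1 and −3.53 against control 2. Fragments of the host RNA cannot be told apart from a miRNA in such counts. hsa-miR-455-5p, from an intron of COL27A1, was the remaining large rise, from 1.34 and 4.42 CPM to 13, 9.49 and 10.6 CPM (log2FC 1.94, SE 0.54, FDR = 0.0198).

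Compared with co-treatment, the pre-treatment response differed for 251 of 868 miRNAs (28.9%) in a quasi-likelihood test of the interaction over all 11 libraries, and for 16 of the 17 miRNAs called by both tests. hsa-miR-335-5p had a log2FC of −0.33 in co-treatment and the difference was 3.29 (SE 0.51, FDR = 0.00121). hsa-miR-483-5p had 1.06 in co-treatment, a difference of −5.0 (SE 0.45, FDR = 9.08e-06). For hsa-miR-451a the difference of 2.03 (SE 0.75) had FDR = 0.0540 and did not pass. Experiment and any batch between the experiments cannot be told apart. The pre-treatment controls also stood apart in level: control 1 lay 0.930 to 1.27 (median absolute log2 difference) from the 3 co-treatment controls and control 2 lay 0.598 to 0.764 from them, while those 3 lay 0.302 to 0.430 from each other.

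The base composition of the miRNA moved with the change. A mature sequence was at hand for 768 of the 868 tested miRNAs (88.5%). It was lacking for hsa-miR-320a, hsa-miR-451a and hsa-miR-483-5p, all called by both tests, which were left out of the values and the fit below. The 39 raised miRNAs with a sequence had a median of 45.5% G and C and the 77 lowered ones 59.1%, against 50% for all. Against control 1, the median log2 ratio went from 0.91 for the 65 miRNAs under 35% to −1.11 for the 90 with 65% or more. Against control 2 it was 0.35 and 0.09 in the same classes. The log2 ratio of control 2 to control 1 had a median of 0.68 in the lowest class and −1.0 in the highest. Across miRNAs, the Spearman correlation of GC content with the ratio was −0.57 against control 1, −0.08 against control 2 and −0.45 between control 2 and control 1, a description over miRNAs of the same 5 libraries. Control 1 thus differed with GC content from each of the other groups of libraries. When the GC trend of every library entered the fit as an offset, the quasi-likelihood test called 2 of the 768, hsa-miR-342-5p and hsa-miR-760, in place of 12 in the same miRNAs without it. The log2FC of hsa-miR-335-5p was then 2.35, that of hsa-miR-21-5p 1.09, that of hsa-miR-1224-5p −2.27 and that of hsa-miR-877-5p −1.24, with quasi-likelihood FDR above 0.05. The part of base composition in the calls was not tested beyond that fit.

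**Figure D5:**
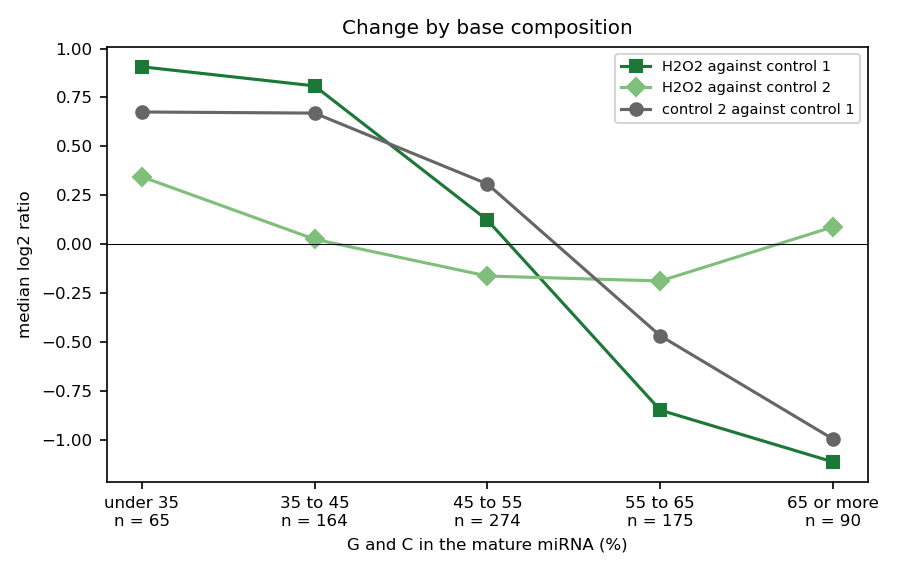
Median log2 ratio of tested miRNAs in 5 classes of the G and C content of the mature sequence (number of miRNAs under each class), for H2O2 against control 1, H2O2 against control 2 and control 2 against control 1. The lines for control 1 fall from the AU-rich to the GC-rich class, and the line for control 2 stays between 0.35 and −0.19.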

How the data were processed

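Small RNA of ATRA-differentiated SH-SY5Y cells was sequenced. Reads were trimmed by the authors (Cutadapt 2.10), mapped to hg19 (Bowtie2 2.4.1) and counted for each mature miRNA (HTSeq 0.7.2), per the study's methods and the submitters' processing notes, and deposited raw counts for each library. The study's methods name the QIAseq miRNA Library Kit. Whether the counts were collapsed by molecular identifiers is not given in the sources used here, so intervals of counting error may not cover PCR copies. The authors' comparison tables (log fold change, average log CPM, p-value and FDR) were not used. Totals were 6935876 to 8396746 counts a library.

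From the deposited counts, miRNAs that exceeded, in 2 or more of 5 libraries, the CPM given by 5 counts of the library with the lowest total were kept, scaled by the trimmed mean of M values (TMM) and tested in edgeR (4.0.16, R 4.3.3) with the exact test that the study used, at an FDR under 0.05 over all 868 and an absolute log2FC above 0.6. edgeR's quasi-likelihood test gave a second FDR, the standard errors and the interaction with co-treatment (11 libraries, 4 groups). Ratios against 1 control used TMM-scaled CPM with 0.5 CPM added and no test. p-values measure the spread between these cultures. Both tests were tried on simulated counts drawn with the same spread for all libraries. That trial does not cover controls that differ more from each other than the treated libraries do. The alternatives were DESeq2 (1.42.0), other scalings and filters, a replicate block, a GC offset and leaving out each library.

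Named miRNAs were the 10 largest rises and falls among calls with at least 10 CPM in a group, no overlap and 0.6 passed against each control, every miRNA called by both tests, the 8 calls of at least 10 CPM with the largest difference between the controls, the 10 most abundant, and members of the family, cluster and marker lists where a list is described. The members and lists were chosen with earlier results of these data known. Hairpins are placed on GRCh37 (GENCODE), and mature sequences are from RefSeq. Where a miRNA is named outside this rule, it was chosen after its values were seen.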

Additional observations from a re-analysis of the deposited data

Results flagged for a closer look

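Of the 17 miRNAs called by both tests, 16 were flagged because their response in pre-treatment differed from that in co-treatment by a test of the difference itself (the interaction in edgeR's quasi-likelihood fit of 11 libraries, FDR under 0.05). The differences below are the pre-treatment log2FC minus that of co-treatment, both from that fit. Raised in pre-treatment and flagged were hsa-miR-335-5p (3.29), hsa-miR-21-5p (2.05, with −0.59 in co-treatment) and hsa-miR-335-3p (1.79). Of the lowered ones, the difference was −5.0 for hsa-miR-483-5p, −3.87 for hsa-miR-3917, −3.74 for hsa-miR-760 and −3.10 for hsa-miR-3127-5p. In the last the co-treatment log2FC was 1.26, and in hsa-miR-760 it was 1.18. It was −2.82 for hsa-miR-1224-5p, −2.73 for hsa-miR-320a, −2.63 for hsa-miR-323b-3p, −2.36 for hsa-miR-629-3p and −2.36 for hsa-miR-18a-3p. The smaller differences were −2.22 for hsa-miR-18b-3p, −2.21 for hsa-miR-342-5p, −1.79 for hsa-miR-675-3p and −1.55 for hsa-miR-877-5p. Without pre-treatment control 1, 15 of the 17 passed, and without control 2, 16. These miRNAs were chosen for their pre-treatment change, so that side of each difference is not independent of the choice. Groups of 2 or 3 libraries were too small for the test of single outlying samples.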

How the results depend on the processing

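The count of calls depended more on the libraries and the test than on scaling. The exact test gave 133 calls (47 raised, 86 lowered) and between 133 and 148 with DESeq2, library size scaling, RLE size factors, a filter in all 5 libraries or no fold threshold. Without a filter on low counts it gave 61 (27 raised and 34 lowered), and with a mean of at least 10 CPM 25 were raised. The quasi-likelihood test called 17 (4 raised, 13 lowered), and 254 had an unadjusted p under 0.05 against 248 in the exact test. On the miRNAs with a sequence it called 12 (2 raised, 10 lowered), an alternative chosen after seeing the data, and with the GC offset 2 (0 raised, 2 lowered). One quasi-likelihood fit of 11 libraries called 167. Leaving out 1 library gave 9 to 449 calls, 3 to 228 raised and 6 to 221 lowered, with 9 to 16 when an H2O2 library was left out and 285 or 449 when a control was, since the spread then comes from the H2O2 libraries alone.

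With the replicate number as a block, the quasi-likelihood test called 15 (4 raised, 11 lowered), of which 14 were among the 133 and 9 among the 17. Deviations from the group means correlated at r = 0.36 in pair 1 and −0.03 in pair 2. With 2 controls, the deviation of one is the mirror of the other, so the check cannot settle whether the numbers pair the samples. The main tests used no pairing.

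Over the 42 named miRNAs, 510 of 686 alternative values kept direction and side of the threshold, 158 lost the call, 10 gained one and 8 changed sign. Leaving out 1 library gave −0.92 to 0.72 for hsa-let-7i-5p, −0.84 to 0.74 for hsa-miR-10b-5p, −0.51 to 0.30 for hsa-miR-25-3p, −1.34 to 0.99 for hsa-miR-125a-5p, −5.88 to 1.04 for hsa-miR-223-3p, −0.27 to 0.79 for hsa-miR-27b-3p and −0.0070 to 0.79 for hsa-miR-93-5p, with both ends of each range from leaving out a control. hsa-miR-27b-3p was at −0.052 among miRNAs with a mean of at least 10 CPM. Calls past 0.6 against each control numbered 125, 122 with library size scaling and 115 with 2 CPM added, both chosen after seeing the data. Library size scaling or RLE size factors changed the sign of the median of the miR-30 family only, and the median over all miRNAs was −0.16 and −0.23 with them, against −0.19.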

Other observations

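Some miRNAs with no call differed widely between the 2 controls. hsa-miR-744-5p, which has been linked to TGF-beta, had 1708 CPM in control 1 and 137 CPM in control 2, with 1107, 924 and 840.0 CPM in the H2O2 libraries. hsa-miR-30b-5p had 759 and 5445 CPM in controls 1 and 2. Both were chosen after their values were seen. Among the tested miRNAs, 112 passed 0.6 in the same direction against each control and were not called by edgeR's exact test.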
